A study of Mus musculus with 12 samples.

Results

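The effect of losing Mib1 was compared between tumours and normal tissue of the intestine in Apc-min mice, as the log2 difference of Notch-inactivated and wild type (WT) tumours minus the log2 difference of Notch-inactivated and WT normal tissue. All 8 arrays labelled with these 4 groups set the difference, of 12 in the series. The other 4, tumours and normal tissue of Notch-activated mice (Vil-Cre;RosaN1+/RN1), entered the fit only to estimate the spread between replicates. They also counted in the filter on dim probes and in the choice of the probe kept per gene. Statements on groups below are about the 4 groups compared, unless Notch-activated mice are named. Each group had 2 arrays: tumours of Notch-inactivated mice, tumours of WT mice, normal tissue of Notch-inactivated mice and normal tissue of WT mice. Notch-inactivated mice were Vil-Cre;Mib1f/f, a genotype in which Cre recombinase driven by the villin promoter removes floxed Mib1 from gut epithelium only, so stroma, vessels and blood keep the gene. All mice were of the Apcmin strain, WT mice included, and whether WT mice carried Cre or the floxed allele is not stated. Neither the age of the mice nor the gut segment is given, nor is it stated that replicate arrays represent different mice, so p-values reflect variation among these arrays.

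Notch is a receptor that is switched on by ligands on neighbouring cells. Mib1 is the ubiquitin ligase that ligand-bearing cells need in order to pull on and activate Notch. In intestinal crypts Notch keeps progenitors dividing and holds back the secretory fates, the Paneth, goblet and enteroendocrine cells. Apc restrains Wnt signalling, and adenomas that have lost it carry high Wnt activity, which also drives Paneth cell genes.

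Before the comparison, the signals of tissue markers, Mib1, Apc and sex-linked genes were read on the 8 arrays. Epithelial Krt18 read 11.2 to 12.1 on the log2 scale over the 8 arrays, Hoxb13, a posterior Hox gene of the hindgut, read 11.2 to 12.1, and Apoa4, an apolipoprotein of small intestinal enterocytes, read 5.69 to 7.27. The Mib1 signal was 6.19 and 6.27 in Notch-inactivated tumours, 6.73 and 6.77 in WT tumours, 6.17 and 6.07 in Notch-inactivated normal tissue and 6.37 and 6.44 in WT normal tissue. It was lower without overlap in both tissues, by -0.52 in tumours (limma, adjusted p = 0.153) and -0.28 in normal tissue (adjusted p = 0.180), with a tissue difference of -0.23 (SE 0.14, adjusted p = 0.684). Whether the probe lies in the deleted part is not known, so it checks no label. The Apc signal had a tissue difference of -0.09 (limma, adjusted p = 0.923). Array 1 of Notch-inactivated normal tissue and array 1 of WT normal tissue carried Xist at 9.42 and 9.88 with the Y-linked Eif2s3y at background, while the other 6 arrays carried Eif2s3y at 8.94 to 9.63 and Xist at no more than 6.33. The 2 arrays of each normal group thus came from mice of different sex, in the same numbering in both genotypes. The tumour arrays were alike in this, which does not tell whether they came from different mice. The spread between tumour replicates may thus be technical or lie between mice. With all 12 arrays and a term for the arrays with Xist signal, 41 of the 42 named genes called below were still called. Without these 2 arrays 19 of the 42 named genes called below were still called, and the part of sex in the results was not tested further.

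The loss of Mib1 moved many more features in normal tissue than in tumours. At an adjusted p under 0.05 (limma, Benjamini-Hochberg over 23501 features), Notch-inactivated and WT tumours differed in 45 features (0.191%), 24 higher (0.102%) and 21 lower (0.0894%). Notch-inactivated and WT normal tissue differed in 952 features (4.05%), 492 higher (2.09%) and 460 lower (1.96%). Of the named genes, 7 were called in tumours (0.131%), 2 higher (0.0374%) and 5 lower (0.0936%), and 243 in normal tissue (4.55%), with 2.49% higher and 2.06% lower. Over all features the spread of the effect (SD) was 0.20 in tumours and 0.36 in normal tissue. The 2 effects shared no array, and 15 features were called in both, which is 33.3% of the tumour calls and 1.58% of the normal calls. Of these 15, 14 had the same direction in both tissues and 1 the opposite. Among the 952 features called in normal tissue the median size of the effect was 0.06 in tumours, taken in the direction of the normal effect, and 0.77 in normal tissue. In tumours 64.1% of them kept that direction, against 54.2% of all features. The other way round, the 45 features called in tumours had a median effect of 1.31 in tumours and of 0.06 in normal tissue.

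The tissue difference itself was called for 161 features (0.685%), 60 higher (0.255%) and 101 lower (0.43%) in tumours than in normal tissue. A negative tissue difference means that the effect of Mib1 loss was lower, or more negative, in tumours. Of the 161, 129 differed by at least 2-fold. Since the tissue difference is built from both effects and shares their arrays, the split by effect describes its calls and is no separate test. Only the normal effect was called in 137 of them (85.1%): 85 that rose in normal tissue and 52 that fell there. Only the tumour effect was called in 18, of which 13 fell and 5 rose in tumours. For 5 features neither effect was called, and 1 was called in both, in opposite directions. Conversely, 14.5% of the normal calls had a called tissue difference, and for the remainder a difference between the tissues was not shown. The count of 161 differed by more than 1.5 times without some single arrays. It was 61 without WT normal array 2, 57 without either Notch-activated normal array, 96 and 69 without WT tumour arrays 1 and 2, and 90 and 76 without Notch-inactivated tumour arrays 1 and 2. With ribosomal protein genes set to a common mean on all arrays, 29 features were higher and 98 lower.

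**Figure D1:**
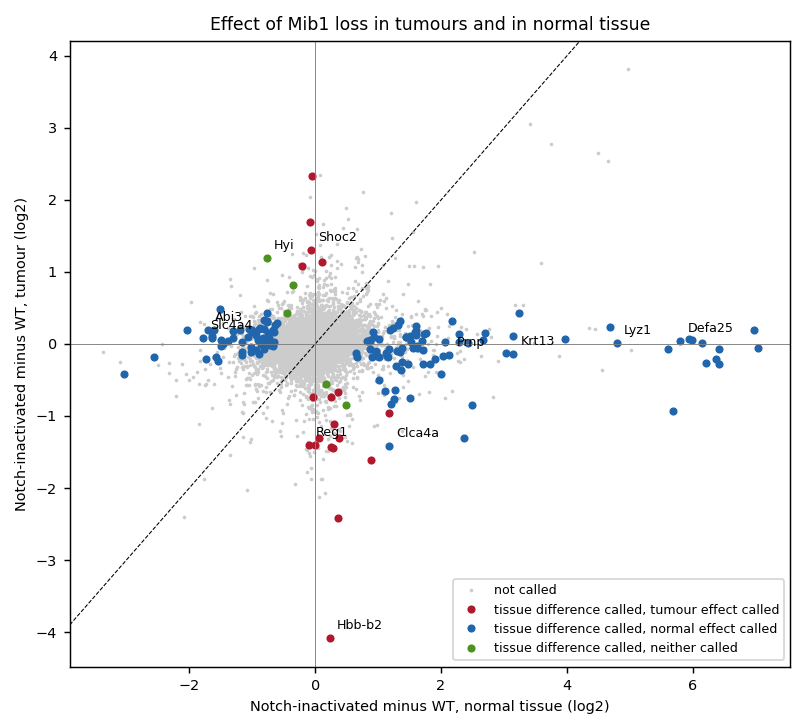
Effect of Mib1 loss on each of 23501 features, as the Notch-inactivated minus WT difference (log2) in tumours on the vertical axis and in normal tissue on the horizontal axis. Red (tumour effect called), blue (normal effect called) and green (neither called) points are the 161 features with a called tissue difference, grey points are features that were not called, and the dashed line marks equal effects; the coloured points lie along the horizontal axis, where 137 have only the normal effect called, and along the vertical axis, where 18 have only the tumour effect called.

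Genes at background were kept apart. The background limit of an array was the 95th percentile of 175 negative probes, 5.58 to 5.63 on the tumour arrays and 5.68 to 5.78 on the normal arrays, and a group was at background when both of its arrays were at or under the limit. In 123 of the 161 features no group was at background, out of 15750 such features tested (0.781%). In 38 at least 1 group was at background. There the dim group has only a limit, so the difference is a bound in 26 features, and in 12 no size or direction can be set, because the effect of 1 tissue was not measured or, in 1 feature, because both effects were bounds. WT normal tissue was the group most often at background among the calls, in 25, against 7 for Notch-inactivated tumours, 7 for WT tumours and 15 for Notch-inactivated normal tissue. Of the 161, 42 carry a gene name (0.786% of 5342 named genes), 11 higher (0.206%) and 31 lower (0.58%), and in 34 of them all 4 groups bearing on the size were measured.

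Paneth cell genes gave the steepest tissue differences among named genes. Paneth cells sit at the base of small intestinal crypts and secrete antimicrobial peptides and lysozyme. In Notch-inactivated normal tissue 9 of the 11 list members tested rose, and in tumours 0 rose or fell, against 2.49% and 0.0374% of named genes that rose. Over these 9 members, which their rise in normal tissue selects, the median signal was 9.68 in Notch-inactivated tumours, 9.52 in WT tumours and 10.3 in Notch-inactivated normal tissue, against 5.57 in WT normal tissue, where 6 of them were at background. Over all 11 the signals of WT normal tissue ranged up to 12.8, in Mptx1. The tissue difference was called lower for 4 of the 11 (Defa25, Defa5, Lyz1 and Habp2), with a list median of -4.12 against 0.01 over all features. The median effect of the list was 0.14 in tumours and 4.34 in normal tissue. In whole tissue, more cells of a type and more RNA per cell cannot be told apart. Members of this list and of the lists below were chosen with earlier results of these data known. Their counts, set against the shares of named genes, are therefore descriptions and no separate test.

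Defa5 and Defa25 encode alpha-defensins, the peptides that Paneth cells release against bacteria. Defa5 read 12.27 and 11.08 in Notch-inactivated tumours, 11.67 and 11.81 in WT tumours, 11.76 and 10.33 in Notch-inactivated normal tissue and 5.39 and 5.50 in WT normal tissue. The tumour groups overlapped, while the normal groups lay far apart, with WT at background. The tissue difference of Defa5 was at least 41.7-fold lower (limma, adjusted p = 0.00600), and it was called in all 12 fits that left out 1 array. Defa25 read 12.85 and 11.77 in Notch-inactivated tumours, 12.04 and 12.48 in WT tumours, 13.10 and 12.45 in Notch-inactivated normal tissue and 8.19 and 5.75 in WT normal tissue. The WT normal arrays of Defa25 disagreed with each other, though both lay below the other arrays of the 4 groups. Its tissue difference was -5.76 (SE 0.92, adjusted p = 0.0296), -6.98 without WT normal array 1 and -4.53 without WT normal array 2. The Defa25 call ended, with adjusted p of 0.0515 to 0.0950, without either Notch-inactivated normal array, either Notch-activated normal array, either WT tumour array or Notch-inactivated tumour array 2.

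Lyz1 encodes the Paneth cell lysozyme, and Habp2 a hyaluronan-binding serine protease. Lyz1 read 13.09 and 12.43 in Notch-inactivated tumours, 12.85 and 12.66 in WT tumours, 11.31 and 12.27 in Notch-inactivated normal tissue and 6.95 and 7.03 in WT normal tissue. Its effect was 0.01 in tumours and 4.80 (SE 0.51) in normal tissue, a tissue difference of -4.79 (SE 0.72, adjusted p = 0.0238). That Lyz1 call ended without either WT normal array, Notch-inactivated normal array 2, either Notch-activated normal array, either WT tumour array or Notch-inactivated tumour array 2 (limma, adjusted p of 0.0576 to 0.0782), and without both Xist arrays (-5.22, adjusted p = 0.0671). Habp2 read 9.56 and 8.88 in Notch-inactivated tumours, 8.86 and 8.95 in WT tumours, 7.89 and 7.69 in Notch-inactivated normal tissue and at most 5.64, at background, in WT normal tissue. Its tissue difference was at least 3.33-fold lower (adjusted p = 0.0285). The Habp2 call ended without either WT normal array, Notch-inactivated normal array 1, either Notch-activated normal array or either WT tumour array (adjusted p of 0.0587 to 0.0887), and without both Xist arrays (-1.73, adjusted p = 0.139). The number of called members was therefore 1 to 6 when 1 array was left out, and 1 without either Notch-activated normal array or WT tumour array 2.

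The other 7 list members were not called. Defa17, Defa21, Defa3, Defa20 and Defa29, also alpha-defensins, had tissue differences of -5.10, -4.23, -4.12, -2.43 and -2.17, with adjusted p between 0.0620 and 0.340 by limma, although each of them rose in normal tissue. Their standard errors were 0.76 to 1.02, against 0.62 for Defa5, and the Notch-inactivated tumours read 11.81 and 9.34 for Defa17. Mptx1, a pentraxin, and Ang4, a ribonuclease with antimicrobial activity, did not share the pattern. Mptx1 read 8.75 and 6.02 in Notch-inactivated tumours, 6.10 and 8.14 in WT tumours, 12.98 and 10.20 in Notch-inactivated normal tissue and 12.79 and 12.20 in WT normal tissue, so it was bright in WT normal tissue. Ang4 was at background in both tumour groups. Alpha-defensin genes are near-identical copies, and 1 probe may read several. Of the 114 called probes without a gene name, 11 were picked for a tissue difference below -4, and theirs were -7.08 to -4.45. Their group means, which follow in part from that cut, were 9.39 to 13.8 in Notch-inactivated tumours and 9.15 to 14.1 in WT tumours. In normal tissue the means were 10.1 to 13.8 for Notch-inactivated mice and 5.17 to 7.43 for WT mice. Which genes these probes read is not known.

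The promoters of 3 list members that rose together in normal tissue are shown because Wnt and Notch each act on transcription through a DNA-binding partner, TCF/LEF and RBPJ. Sequences are the 250 bases before the start in RefSeq, build GRCm38.p6: Lyz1 at chr10:117292869-117293118 on the minus strand, Habp2 at chr19:56287662-56287911 on the plus strand and Defa21 at chr8:21025295-21025544 on the plus strand. Defa21 was chosen for its available sequence after its values were seen, and Defa5 and Defa25 are named only. Capitals mark matches on either strand to motifs of 3 kinds. The TCF/LEF motif was spelled CTTTGAA or as CTTTGAT, with CTTTGTA or also CTTTGTT allowed, the RBPJ motif was TGGGAA, and the TATA box was searched as TATAAA.
Lyz1: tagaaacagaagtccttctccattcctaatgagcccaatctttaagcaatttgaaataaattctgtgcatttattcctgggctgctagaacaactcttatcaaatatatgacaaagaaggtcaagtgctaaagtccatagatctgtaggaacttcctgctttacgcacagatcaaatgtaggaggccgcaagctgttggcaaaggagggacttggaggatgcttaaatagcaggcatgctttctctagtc
Habp2: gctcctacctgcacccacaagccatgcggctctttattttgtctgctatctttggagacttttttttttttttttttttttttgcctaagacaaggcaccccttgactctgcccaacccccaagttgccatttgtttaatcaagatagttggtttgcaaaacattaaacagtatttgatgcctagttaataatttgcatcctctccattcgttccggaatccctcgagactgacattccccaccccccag
Defa21: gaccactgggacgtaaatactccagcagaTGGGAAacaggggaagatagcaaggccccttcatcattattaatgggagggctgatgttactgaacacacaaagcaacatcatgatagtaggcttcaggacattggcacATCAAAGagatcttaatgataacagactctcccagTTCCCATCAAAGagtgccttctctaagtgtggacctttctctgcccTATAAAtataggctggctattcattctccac
The Defa21 stretch held 2 TCF/LEF matches, 112 and 72 bases before the start, 2 RBPJ matches, 221 and 77 bases before it, and 1 TATAAA match 31 bases before it. The nearer TCF/LEF and RBPJ matches share 1 base. The Lyz1 and Habp2 stretches held none of these letters. Of 32851 RefSeq stretches of the same length, 14.8% held a TCF/LEF match, 21.6% an RBPJ match and 12.4% a TATAAA match.

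Of 12 members of the stem and crypt base list, Clca4a, Igfbp4 and Prom1 had a lower tissue difference, against 0.58% of named genes, at a list median of -0.17. Igfbp4, which binds insulin-like growth factors, read 11.23 and 11.13 in Notch-inactivated tumours, 11.16 and 11.24 in WT tumours, 7.37 and 7.63 in Notch-inactivated normal tissue and 5.71 and 6.04 in WT normal tissue. It was equally high in both tumour groups and, in normal tissue, higher on both Notch-inactivated arrays, for a tissue difference of -1.65 (SE 0.25, adjusted p = 0.0263). Prom1, the surface protein CD133 of progenitors, read 12.51 and 12.32 in Notch-inactivated tumours, 12.27 and 12.06 in WT tumours, 12.86 and 12.57 in Notch-inactivated normal tissue and 11.29 and 10.92 in WT normal tissue, with a tissue difference of -1.36 (SE 0.21, adjusted p = 0.0249). The average over the Prom1 probes gave -0.66 (adjusted p = 0.0905). Clca4a, of the chloride channel accessory family, stood apart because both effects contributed. It read 9.89 and 9.50 in Notch-inactivated tumours, 10.69 and 11.52 in WT tumours, 13.55 and 13.42 in Notch-inactivated normal tissue and 12.52 and 12.10 in WT normal tissue. Its effect was -1.42 in tumours (adjusted p = 0.0863) and 1.18 in normal tissue (adjusted p = 0.0294), and the tissue difference was -2.59 (SE 0.35, limma, adjusted p = 0.0145), which ended without WT normal array 2 (-2.38, adjusted p = 0.0564) and without both Xist arrays (-2.74, adjusted p = 0.0522). The Igfbp4 call ended without WT normal array 1, Notch-inactivated normal array 2 or any of the 4 arrays of these tumour groups, with adjusted p up to 0.0853, and without both Xist arrays (-1.61, adjusted p = 0.0775). The Prom1 call ended without WT normal array 2, either Notch-activated normal array, WT tumour array 1 or Notch-inactivated tumour array 2, with adjusted p up to 0.0853. The list members Kcnq1, a potassium channel, and Ascl2, a stem cell transcription factor, were not called, at 1.51 (limma, adjusted p = 0.108) and 0.68 (adjusted p = 0.380).

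**Figure D2:**
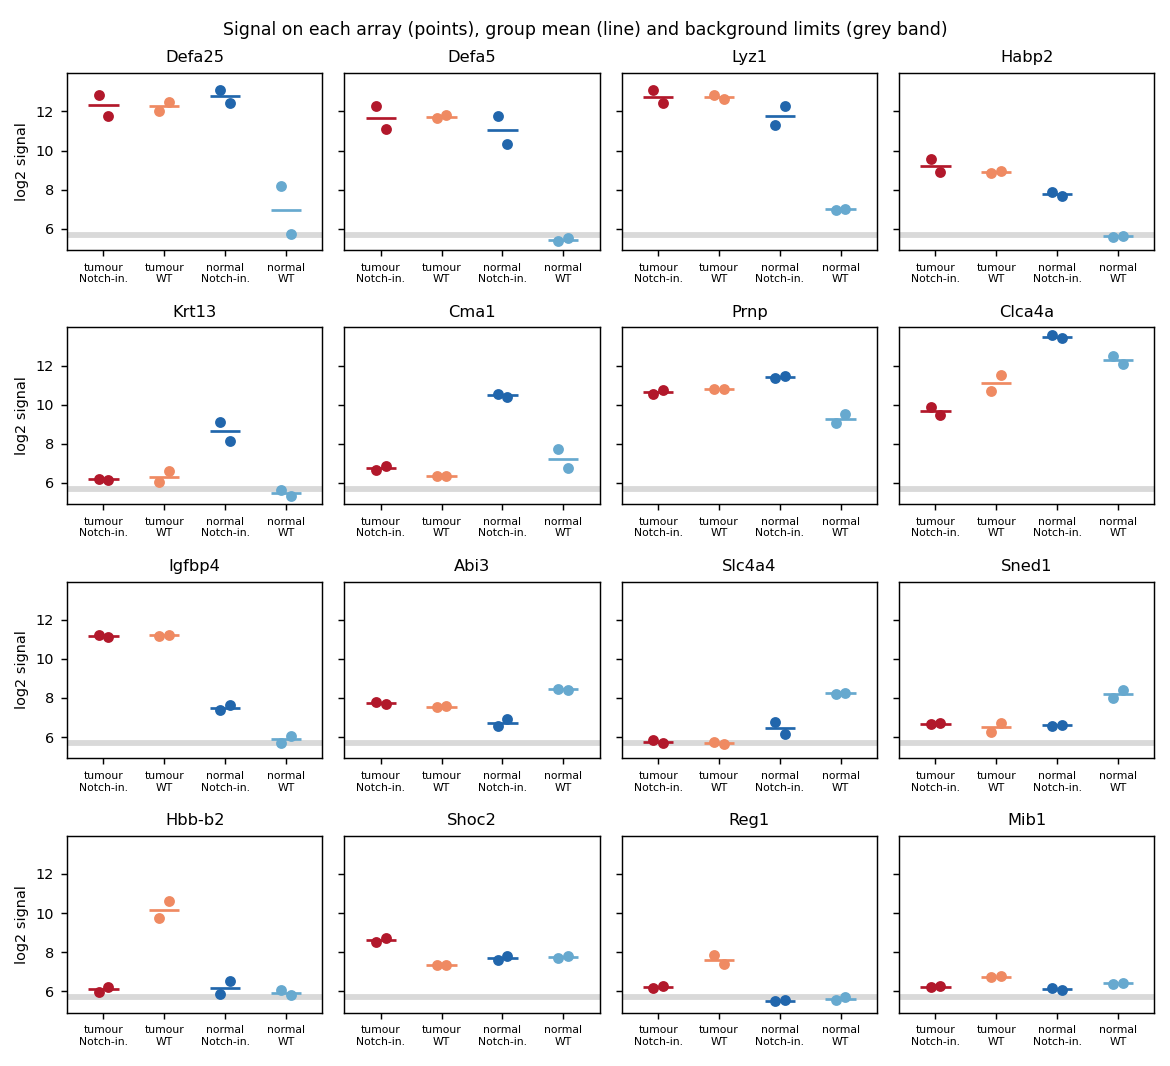
Log2 signal of 16 genes on each array (points) with the group mean (line), for Notch-inactivated tumours, WT tumours, Notch-inactivated normal tissue and WT normal tissue from left to right; the grey band spans the background limits, 5.58 to 5.78. Of these groups, the Paneth genes in the top row are low only in WT normal tissue, whereas Hbb-b2 and Reg1 stand out in WT tumours and Shoc2 in Notch-inactivated tumours.

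Krt13, Cma1 and Prnp rose in Notch-inactivated normal tissue without being called in tumours, and each tissue difference was called in all 12 fits that left out 1 array. Krt13, a keratin of stratified epithelia, read 6.21 and 6.17 in Notch-inactivated tumours, 6.04 and 6.61 in WT tumours, 9.10 and 8.17 in Notch-inactivated normal tissue and 5.65 and 5.32, at background, in WT normal tissue. Both Notch-inactivated normal arrays lay above the others of the 4 groups, and the tissue difference was at least 8.23-fold lower (limma, adjusted p = 0.0106). Of the other 5 squamous genes tested, Sfn rose in normal tissue (0.78, adjusted p = 0.0271) and had a tissue difference of -1.07 (adjusted p = 0.0781), and no other member was called. Cma1, the mast cell chymase, read 6.68 and 6.86 in Notch-inactivated tumours, 6.34 and 6.33 in WT tumours, 10.55 and 10.41 in Notch-inactivated normal tissue and 7.72 and 6.74 in WT normal tissue. The tissue difference of Cma1 was -2.81 (SE 0.36, adjusted p = 0.0132), whereas the mast cell genes Fcer1a, Slc18a2 and Mcpt4 had -0.10, 0.13 and 0.36 and none was called, Mcpt4 being at background in both normal groups. Prnp, the prion protein, read 10.54 and 10.77 in Notch-inactivated tumours, 10.81 and 10.80 in WT tumours, 11.34 and 11.48 in Notch-inactivated normal tissue and 9.04 and 9.52 in WT normal tissue. It was the lowest in WT normal tissue, for a tissue difference of -2.28 (SE 0.22, limma, adjusted p = 0.00354). On the normal arrays of Notch-activated mice Krt13 read 10.45 and 10.24, Prnp 10.50 and 10.25, and Cma1 7.13 and 6.83. Krt13 and Prnp thus lay above WT normal tissue there too, while Cma1 lay within its range.

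Of 20 genes of xenobiotic metabolism tested, 3 had a lower tissue difference and 0 a higher one, against 0.58% and 0.206% of named genes, with a list median of 0.02 and 9 of 20 below 0. Cyp2c66, a cytochrome P450, read 5.66 and 5.45 in Notch-inactivated tumours, 5.37 and 5.68 in WT tumours, 9.08 and 8.85 in Notch-inactivated normal tissue and 6.46 and 7.34 in WT normal tissue. The tumour signals were near the limit, and the tissue difference was -2.03 (SE 0.35, limma, adjusted p = 0.0397). Gsta1, a glutathione transferase, read 6.12 and 6.02 in Notch-inactivated tumours, 6.70 and 6.72 in WT tumours, 8.74 and 9.38 in Notch-inactivated normal tissue and 7.78 and 7.79 in WT normal tissue. Gsta1 was thus lower than WT on both Notch-inactivated tumour arrays and higher than WT on both Notch-inactivated normal arrays, for a tissue difference of -1.91 (SE 0.33, adjusted p = 0.0402), of which only the normal part was called (1.27, adjusted p = 0.0174; tumours -0.64, adjusted p = 0.944). Gsta2, a close copy of it, gave -1.77 (adjusted p = 0.0422), and their probes may read each other. Leaving out arrays singly ended the calls of Cyp2c66, Gsta1 and Gsta2 in all but 2, 3 and 3 of 12 fits (limma, adjusted p up to 0.120, 0.118 and 0.133), and leaving out both Xist arrays ended them too. Ly6m, of the Ly6 surface protein family, had the same shape, with 8.68 and 8.69 in Notch-inactivated tumours, 9.60 and 9.44 in WT tumours, 12.21 and 11.79 in Notch-inactivated normal tissue and 10.79 and 10.82 in WT normal tissue. Its tissue difference was -2.03 (SE 0.26, adjusted p = 0.0129), called in all 12 fits that left out 1 array, and -1.81 without both Xist arrays (adjusted p = 0.0610). Mcub, a regulatory subunit of the mitochondrial calcium uniporter, was at background in WT normal tissue, and its tissue difference was at least 2.89-fold lower (adjusted p = 0.0397), a call that held in 2 of the 12 such fits.

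Of the 11 named genes with a higher tissue difference, all but Shoc2 and Hyi fell in Notch-inactivated normal tissue, with no call in tumours. Abi3, a regulator of the actin cytoskeleton, read 7.77 and 7.70 in Notch-inactivated tumours, 7.51 and 7.57 in WT tumours, 6.57 and 6.90 in Notch-inactivated normal tissue and 8.48 and 8.39 in WT normal tissue. WT normal tissue was the highest group and Notch-inactivated normal tissue the lowest, and the tissue difference of Abi3 was 1.90 (SE 0.16, limma, adjusted p = 0.00175). Slc4a4, a sodium bicarbonate cotransporter, read 5.83 and 5.70 in Notch-inactivated tumours, 5.75 and 5.63 in WT tumours, 6.75 and 6.15 in Notch-inactivated normal tissue and 8.22 and 8.26 in WT normal tissue. The tumour signals of Slc4a4 lay just above the limit, so a fall of the size in normal tissue (-1.79) could not have registered there. Its tissue difference was 1.87 (SE 0.28, limma, adjusted p = 0.0221). Sned1, an extracellular matrix protein, read 6.64 and 6.72 in Notch-inactivated tumours, 6.28 and 6.70 in WT tumours, 6.57 and 6.61 in Notch-inactivated normal tissue and 7.99 and 8.41 in WT normal tissue. Of the 4 groups only WT normal tissue was raised, and the tissue difference was 1.80 (SE 0.22, limma, adjusted p = 0.0106). In normal tissue of Notch-activated mice Abi3 read 7.09 and 6.99, Sned1 7.56 and 7.55, and Slc4a4 8.06 and 8.41. The Abi3 and Sned1 calls held in all 12 fits that left out 1 array, and that of Slc4a4 in 6, ending with adjusted p of up to 0.0777 without either WT normal array or any array of these tumour groups. Smaller tissue differences, again with a called fall in normal tissue, were those of Ctns, the lysosomal cystine exporter (0.89, adjusted p = 0.0185), Ccdc32 (0.92, adjusted p = 0.0371), Rnf31, a ligase of linear ubiquitin chains (0.90, adjusted p = 0.0402), and Repin1, a zinc finger protein (0.75, adjusted p = 0.0436). Dgkg, a diacylglycerol kinase, was at background in Notch-inactivated normal tissue, with a tissue difference of at least 1.81-fold higher (limma, adjusted p = 0.0455). The Ctns call held in 8 of the 12 fits, and those of Ccdc32, Rnf31, Repin1 and Dgkg in 1, 1, 0 and 1.

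In a smaller set of genes the fitted effect was larger in size in tumours than in normal tissue. Shoc2, a scaffold of RAS signalling, read 8.53 and 8.73 in Notch-inactivated tumours, 7.32 and 7.32 in WT tumours, 7.59 and 7.82 in Notch-inactivated normal tissue and 7.71 and 7.82 in WT normal tissue. It rose by 1.31 in Notch-inactivated tumours (limma, adjusted p = 0.00268) and had an effect of -0.06 in normal tissue, for a tissue difference of 1.37 (SE 0.15, adjusted p = 0.00668) that held in all 12 fits. The average over the Shoc2 probes gave 0.73 (adjusted p = 0.0453). Hyi, a hydroxypyruvate isomerase, was called in neither tissue alone, at 1.19 in tumours (adjusted p = 0.211) and -0.77 in normal tissue (adjusted p = 0.141). Its tissue difference of 1.96 (SE 0.36, adjusted p = 0.0469) held in 2 of the 12 fits. Hbb-b2, a beta-globin of red blood cells, read 5.94 and 6.23 in Notch-inactivated tumours, 9.74 and 10.60 in WT tumours, 5.84 and 6.50 in Notch-inactivated normal tissue and 6.06 and 5.80 in WT normal tissue. Of the 4 groups it was bright in WT tumours alone, with a tumour effect of -4.08 (adjusted p = 0.0212) and a tissue difference of -4.32 (SE 0.75, adjusted p = 0.0397), which held in 2 of the 12 fits. The other red blood cell genes tested were not called: Hba-a1 and Hbb-b1 had tissue differences of 0.35 (limma, adjusted p = 0.958) and 0.48 (adjusted p = 0.863), and Hba-a1 read 12.14 and 12.23 in Notch-inactivated tumours against 12.34 and 13.15 in WT tumours. Reg1, a secreted C-type lectin, read 6.15 and 6.24 in Notch-inactivated tumours and 7.83 and 7.37 in WT tumours, and was at background in both normal groups. The tumour effect of Reg1 was -1.40 (limma, adjusted p = 0.0154), while the tissue difference of -1.30 (adjusted p = 0.0387) has no set size or direction because the normal effect was not measured, and it held in 1 of the 12 fits.

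A few immunoglobulin segments, which mark B and plasma cells, were called. Of 170 segments tested, 5 had a lower tissue difference, against 0.43% of all features, and 6 were lower in Notch-inactivated than in WT tumours, against 0.0894% of all features. None was called in normal tissue, where background left the effect of most segments unmeasured. The median tissue difference of the segments was -0.25. The 5 segments, named after their values were seen, were IGKV12-41, IGKV12-44, IGKV12-46, IGHV1S30 and IGKV4-86. They spanned 5.64 to 7.90 in Notch-inactivated tumours, 6.36 to 9.32 in WT tumours, 5.20 to 6.17 in Notch-inactivated normal tissue and 5.21 to 5.88 in WT normal tissue. IGKV12-41 read 7.90 and 7.66 in Notch-inactivated tumours, 9.32 and 9.12 in WT tumours, 6.17 and 6.10 in Notch-inactivated normal tissue and 5.88 and 5.82 in WT normal tissue, a tissue difference of -1.73 (SE 0.23, limma, adjusted p = 0.0144). Normal signals of the others lay near or at background, so the direction given for them is that of the fit. Probes for segments of the same family may read each other. The B and plasma cell list had 0 of 5 members called, at a median of -1.41. Its constant region Igkc read 12.53 and 13.67 in Notch-inactivated tumours, 13.47 and 13.91 in WT tumours, 9.27 and 9.10 in Notch-inactivated normal tissue and 8.63 and 6.96 in WT normal tissue, with a tissue difference of -1.98 (limma, adjusted p = 0.416).

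The remaining 15 named genes fall outside the rule for naming and were added after their values were seen. Of them 11 rose in normal tissue without a tumour call: Dhrs9, a retinol dehydrogenase, Eif4e3, a cap-binding protein, Bmp8b, a growth factor, S100a11, a calcium-binding protein, Itgav, an integrin subunit, Pdlim7, Pacsin3, Gpat3, an acyltransferase of glycerolipid synthesis, Appl1, Rtn4 and Kcnk10, a potassium channel. Dhrs9 was at background in WT normal tissue, and its tissue difference was at least 2.76-fold lower (limma, adjusted p = 0.00175), while Eif4e3 differed by -1.47 (SE 0.17, adjusted p = 0.00761). Those 2 calls held in all 12 fits that left out 1 array, and the average over the Eif4e3 probes gave -1.06. The calls of Bmp8b, Itgav, Pdlim7, Pacsin3, Gpat3, Appl1, Rtn4 and Kcnk10, at -1.39 to -0.78, held in 1 to 3 of them. The S100a11 call (-1.35, adjusted p = 0.0145) ended without WT normal array 2 (adjusted p = 0.0584) or WT tumour array 2 (adjusted p = 0.0533). Mrps10, a mitochondrial ribosomal protein, fell in Notch-inactivated tumours (-0.66, limma, adjusted p = 0.0374), with a tissue difference of -1.02 (adjusted p = 0.0153) that ended without WT tumour array 1 (adjusted p = 0.0518) or Notch-inactivated tumour array 2 (adjusted p = 0.0591). Rpl29 (-1.34) and Med20 (-0.72) were called in neither tissue alone, and their calls held in 2 and 0 of the fits. Cyp2c23 fell in normal tissue and was at background in Notch-inactivated tumours and Notch-inactivated normal tissue, so its tissue difference has no set size or direction, and its call held in 1 fit.

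**Figure D3:**
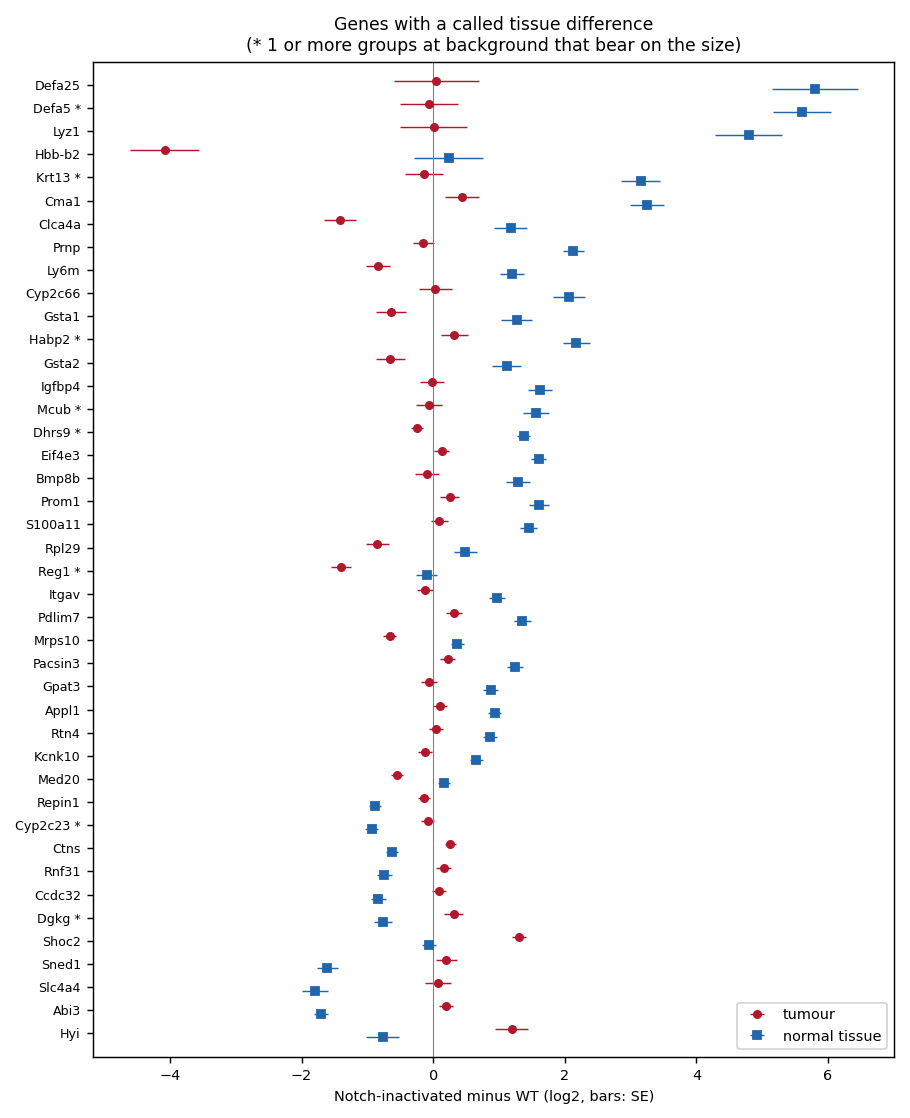
Effect of Mib1 loss (Notch-inactivated minus WT, log2, with SE) in tumours (circles) and in normal tissue (squares) for the 42 named genes with a called tissue difference, ordered from the most negative difference at the top to the most positive at the bottom. Asterisks mark the 8 genes with a group at background that bears on the size; most circles lie near 0 while the squares lie to the right for lower and to the left for higher tissue differences.

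Across the 32 gene lists, 14 of 304 distinct genes tested had a lower tissue difference and 0 a higher one, against 0.58% and 0.206% of named genes. Members and lists were chosen with earlier results of these data known, so these shares describe the lists and are no separate test. The calls fell in 8 lists, and 24 lists had 0 calls. Among the Notch pathway and its targets 0 of 17 were called, at a median of -0.06, with the largest differences in Neurl1a, a ubiquitin ligase (0.61, limma, adjusted p = 0.624), and the receptor Notch4 (-0.60, adjusted p = 0.425), and Notch4 rose in normal tissue (0.86, adjusted p = 0.0223). Of the other secretory lineages, goblet cells had 0 of 10 called at a median of 0.10, enteroendocrine cells 0 of 4 at -0.20 and tuft cells 0 of 7 at 0.02. Retnlb of the goblet list varied between the Notch-inactivated normal arrays (13.83 and 9.27), against 13.86 and 12.94 in WT normal tissue. Wnt targets had 0 of 10 called at a median of -0.06, proliferation genes 0 of 16 at -0.02 and enterocyte genes 0 of 11 at 0.17. Slc5a1, the glucose transporter of enterocytes, fell in normal tissue (-1.16, adjusted p = 0.00928) and had a tissue difference of 1.29 (limma, adjusted p = 0.0739).

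The lists that follow had 0 called members, and their medians are descriptions without a test. Interferon response genes had a median tissue difference of 0.68, 17 of 18 above 0 and 0 called, with median effects of 0.11 in tumours and -0.53 in normal tissue. Ifi27l2a, an interferon-induced gene, read 7.67 and 7.26 in Notch-inactivated tumours, 6.83 and 8.32 in WT tumours, 6.66 and 7.71 in Notch-inactivated normal tissue and 10.74 and 10.40 in WT normal tissue. It fell in normal tissue (-3.38, limma, adjusted p = 0.00415), and its tissue difference was 3.27 (SE 0.66, adjusted p = 0.0658). Trim30a, another interferon-induced gene, had 1.92 (adjusted p = 0.242). MHC class II genes had a median of 0.74 with 0 of 5 called, and MHC class I genes 0.21 with 0 of 12. Genes of endoplasmic reticulum folding and secretion lay below 0 in 16 of 16, at a median of -0.20 with 0 called. The regenerative and fetal-like list had a median of -0.64 with 0 of 7 called, where Cldn4, a tight junction protein, rose in normal tissue (1.66, limma, adjusted p = 0.00219) and had a tissue difference of -1.47 (adjusted p = 0.0594). The colonic list had 0 of 17 called at -0.11, although Ckb, the brain-type creatine kinase, reached -2.64 (adjusted p = 0.0777). Neutrophil genes had a median of -0.46 with 0 of 10 called, led by the chemokines Cxcl1 at -2.10 (adjusted p = 0.180) and Cxcl2. The other lists without a call had medians between -0.16 and 0.24.

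**Figure D4:**
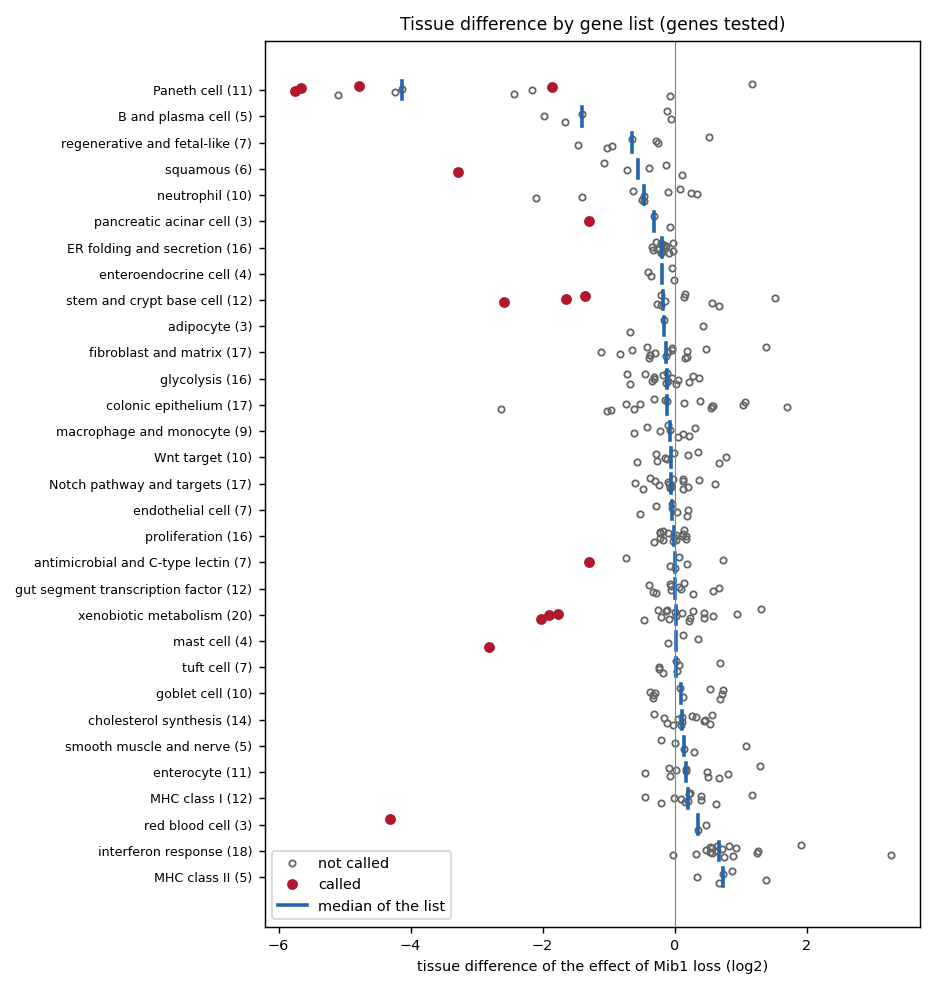
Tissue difference of the effect of Mib1 loss (log2, tumours minus normal tissue) for each tested gene of the lists with at least 3 tested genes; filled points are called, open points are not, and the vertical bar is the list's median. The Paneth list lies furthest to the left with 4 called genes at a median of -4.12, and the interferon and MHC class II lists lie furthest to the right with 0 called.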

How the data were processed

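Total RNA from 12 intestinal samples was hybridised to Illumina bead arrays, per the labels. The authors deposited 1 value per probe and array. The log2 values deposited by the authors had been quantile normalized, as read from the values themselves: the median was 5.54 on each array and sorted values differed by at most 5.43e-04. The log base is likewise inferred, and the sources used here do not give any background correction. A companion table with 24 columns of per-sample values was not used, because no label ties its columns to samples.

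Of 46628 probes, 613 were controls and 175 negative probes set each array's limit (95th percentile). Features above it on at least 2 of 12 arrays were kept, with the brightest probe per gene, giving 5342 named genes, 17964 unnamed probes, 182 immune segments and 13 mitochondrial probes. The files do not pair probes with genes. Numbers after 1 or 2 zeros in probe identifiers were read as NCBI gene numbers and matched to RefSeq (GRCm38.p6): 81.1% and 84.8% matched, against 12.9% and 13.9% after a shift. Names are thus inferred, and less firm after 2 zeros, where ribosomal protein probes had a median of 6.53 against 13.2. Of the 42 called named genes 20 are of that kind: Defa25, Hbb-b2, Krt13, Clca4a, Ly6m, Gsta1, Gsta2, Prom1, Dgkg, Shoc2, Sned1, Abi3, Dhrs9, Eif4e3, Bmp8b, Itgav, Pdlim7, Pacsin3, Appl1 and Rtn4.

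The 6 group means were fitted to all 12 arrays with limma 3.58.1 in R 4.3.3 (lmFit, eBayes; 6 residual and 3.75 prior degrees of freedom), so that all groups shared 1 spread, and p-values were adjusted by Benjamini-Hochberg per contrast over all features. The code was tested on simulated data. Where a group was at background, the bound set the bright group's mean against the dim group's limit. Named were Mib1, Apc, the 15 largest calls each way whose direction background leaves set, the largest opposite calls (only an unnamed probe qualified), up to 4 called members of each list each way, and at most 2 members of lists without a call. The other 15 called genes, and uncalled members of lists with a call, are named outside this rule, after their values were seen. Members and lists were chosen with earlier results of these data known. Alternatives were a replicate block, the 8 arrays alone, other filters, background limits and scalings, probe averaging, an intensity trend, leaving out each array, and, chosen after seeing the data, a term for the arrays with Xist signal, their omission, and a crossed pairing of tumour arrays. The number of arrays limits the precision.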

Additional observations from a re-analysis of the deposited data

Results flagged for a closer look

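The effect of Mib1 loss differed between tumours and normal tissue in 161 features by the test of that difference itself (limma, adjusted p under 0.05), of which 42 are named genes. The fitted tissue differences (log2, tumour effect minus normal effect) of the named genes with a lower effect in tumours were Defa25 -5.76, Defa5 -5.67, Lyz1 -4.79, Hbb-b2 -4.32, Krt13 -3.29, Cma1 -2.81, Clca4a -2.59, Prnp -2.28, Ly6m -2.03, Cyp2c66 -2.03 and Gsta1 -1.91. Further such values were Habp2 -1.85, Gsta2 -1.77, Igfbp4 -1.65, Mcub -1.62, Dhrs9 -1.62, Eif4e3 -1.47, Bmp8b -1.39, Prom1 -1.36, S100a11 -1.35 and Rpl29 -1.34, and then Reg1 -1.30, Itgav -1.10, Pdlim7 -1.04, Mrps10 -1.02, Pacsin3 -1.02, Gpat3 -0.94, Appl1 -0.83, Rtn4 -0.83, Kcnk10 -0.78 and Med20 -0.72. The named genes with a higher effect in tumours had values of Hyi 1.96, Abi3 1.90, Slc4a4 1.87, Sned1 1.80, Shoc2 1.37, Dgkg 1.07, Ccdc32 0.92, Rnf31 0.90, Ctns 0.89, Cyp2c23 0.85 and Repin1 0.75. The fitted values of Defa5, Krt13, Habp2, Mcub, Dhrs9 and Dgkg rest on a group at background, for which bounds are given above, and those of Reg1 and Cyp2c23 have no set size or direction, so their signs are those of the fit alone. The fitted sign of all 42 was kept under each alternative that gave a value, and 10 were called in every fit that left out 1 array: Defa5, Krt13, Cma1, Prnp, Ly6m, Dhrs9, Eif4e3, Shoc2, Sned1 and Abi3. Repin1 and Med20 were called in 0 of those 12 fits. With 2 arrays a group, no array could be tested for standing apart from its group.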

How the results depend on the processing

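With the 8 arrays of the 4 groups alone, the counts were 55 for the tissue difference, 16 in tumours and 568 in normal tissue. In that fit 12 of the 42 named genes were still called. It had fewer residual degrees of freedom and took its spread from these 8 arrays only, and the cause of the lower counts was not tested. Leaving out 1 array at a time gave 57 to 169, 18 to 47 and 369 to 914. A filter for signal above background on all 8 arrays tested fewer features and gave 28 calls in tumours and 117 tissue differences. A term for the arrays with Xist signal gave 248 tissue differences, and leaving those arrays out gave 527 calls in normal tissue; the cause was not tested. The other filters, limits, scalings and probe averages gave 117 to 163 tissue differences, all within 1.5 times. The replicate block gave 124, 45 and 885 calls, with 25 of the 42 named genes still called. Same-numbered arrays deviated together at r = -0.38 between the tumour groups and 0.34 between the normal groups, and between -0.04 and 0.08 otherwise, so the numbers were not taken to pair the samples, although in both normal groups array 1 carried Xist and array 2 did not. The crossed pairing of tumour arrays gave 161, 55 and 961 calls. A slide block was not run because the files name no slide. No called gene changed sign under the alternatives run. Of the uncalled genes, leaving out 1 array turned the sign of 6: Retnlb ranged from -1.54 to 3.02, Lpl from -0.405 to 1.26, Fcgr3 from -0.918 to 0.0737, Hspa5 from -0.722 to 0.0666, Plk1 from -0.510 to 0.0507 and Apc from -0.178 to 0.0009. Weak signals limit the genes at background, above all in WT normal tissue.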
